A study of Homo sapiens with 12 samples.

Results

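The 7 genes described here encode the cyclin-dependent kinase (CDK) inhibitors other than p21, namely CDKN1B, CDKN1C, CDKN2A, CDKN2B, CDKN2C, CDKN2D and CDKN3. They were taken by gene symbol, not by their values, from a table of 58302 genes. All 7 were among the 16027 genes that passed the filter on low values. They were measured by stranded mRNA sequencing in 12 libraries of human papillary thyroid carcinoma cells, 3 libraries each of the TPC1 cell line (genotype wt) and of its derivatives D11, WB1 and TD5 (genotype DICER (+/-)). The 3 derivatives came from a transient transfection of TPC1 with a CRISPR/Cas9 plasmid whose guide targets exon 11 of DICER1, and each is a single clone grown from 1 sorted cell. A clone's own features and the loss of 1 DICER1 allele therefore cannot be told apart within a line. All lines grew in the same medium without any further treatment. Because the labels do not say whether the libraries of a line came from separate cultures, p-values measure only the spread between libraries, which may be technical.

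CDK inhibitors bind cyclin-dependent kinases or their complexes with cyclins and restrain entry into the cell cycle. The CIP/KIP proteins p27 (CDKN1B) and p57 (CDKN1C) act on a broad range of cyclin-CDK complexes, whereas the INK4 proteins p16 (CDKN2A), p15 (CDKN2B), p18 (CDKN2C) and p19 (CDKN2D) bind CDK4 and CDK6 and hold back the phosphorylation of RB. CDKN3 is a phosphatase that acts on CDKs and is expressed mostly by dividing cells. DICER1 cuts miRNA precursors into mature miRNAs, and miR-221 and miR-222 are known repressors of p27 and p57.

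The sequences of these miRNAs are shown because members differed in whether their transcripts hold a matching site. Both mature miRNAs lie on the minus strand of the X chromosome in RefSeq (GRCh38.p14), at chrX:45746180-45746202 for miR-221-3p and chrX:45747036-45747056 for miR-222-3p. They share 1 seed, bases 2 to 8, given in capitals.
hsa-miR-221-3p: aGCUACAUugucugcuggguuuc
hsa-miR-222-3p: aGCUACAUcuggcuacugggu

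The bases that pair with this seed, ATGTAGC, were searched on the transcript strand in the 3′ UTR of 1 reference (MANE) transcript per gene. They occurred in 1541 of 18649 such UTRs (8.26%). Among the members, CDKN1B held 2 matches, CDKN1C 1 and CDKN2B 1, each followed by A, and these 4 are printed below within 30 bases of the UTR with the match in capitals. In GRCh38 the matches lie at chr12:12721228-12721234 (+) and chr12:12721301-12721307 (+) for CDKN1B, at chr11:2883829-2883835 (-) for CDKN1C and at chr9:22004947-22004953 (-) for CDKN2B.
CDKN1B site 1: ctctaaaagcgttggATGTAGCattatgca
CDKN1B site 2: tagtttttaccttttATGTAGCacataaac
CDKN1C site 1: cggctgggaccgttcATGTAGCagcaaccg
CDKN2B site 1: aactacagctcttaaATGTAGCaatggcac

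The 3′ UTRs of CDKN2A, CDKN2C, CDKN2D and CDKN3 held 0 matches, as did that of CDKN1A (p21). The members with a match had the longer UTRs, at 1342 bases for CDKN1B, 703 for CDKN1C and 3084 for CDKN2B. Those without were 477 bases for CDKN2A, 364 for CDKN2C, 598 for CDKN2D and 140 for CDKN3, while CDKN1A had 1532. UTR length was not taken into account in the share given above. A match is a description of the sequence, and binding was not measured here.

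Values are given as scaled reads, the authors' read numbers per gene after scaling each library to 20000000 aligned reads. The number of reads behind a library was estimated at 12700000 to 21364000 from the steps between whole numbers, so that a floor of 3 reads lay at 2.81 to 4.72 scaled reads. All members were above this floor in all 12 libraries. DICER1, the targeted gene, was at 1360, 1129 and 1101 scaled reads in TPC1, at 977, 1051 and 1093 in D11, at 881, 939 and 815 in WB1 and at 643, 627 and 809 in TD5. It lay below TPC1 in all 9 clone libraries, with log2 differences of -0.19 for D11 (adjusted p = 0.138), -0.43 for WB1 (adjusted p = 0.00404) and -0.77 for TD5 (adjusted p = 9.02e-05). Of the thyroid follicular markers, TSHR, SLC5A5 and NKX2-1 were at or under the floor in every library, while PAX8 lay between 7248 and 9879 scaled reads and FOXE1, a thyroid transcription factor, fell in all 3 clones (log2 differences of -0.95, -1.06 and -1.20). The summed levels of 5 epithelial markers were 21315 to 24330 scaled reads over the TPC1 libraries and lower in every clone library, at 17176 to 18680 over D11, 18108 to 18578 over WB1 and 16887 to 19326 over TD5, and 2 of the 3 tested epithelial genes were lower past the p threshold in each clone. KRT8 and KRT18 carried the epithelial sum, while KRT19 and EPCAM lay at 0 to 6 and 0 to 5 scaled reads. The sums of 4 fibroblast markers ranged from 48 to 299, and those of 3 endothelial and 3 leukocyte markers from 0 to 9 and 2 to 9. The fibroblast sum, carried by COL1A1 and, in TPC1 and WB1, LUM, spanned 145 to 170 scaled reads over the TPC1 libraries, 68 to 97 over D11, 196 to 299 over WB1 and 48 to 61 over TD5, and the part of the epithelial and fibroblast sums in the results below was not tested. In bulk RNA, fewer cells expressing a gene and less RNA per cell cannot be told apart.

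The question was whether the transcripts of these inhibitors differ between TPC1 and clones with 1 disrupted DICER1 allele. CDKN1C fell in D11 and TD5, CDKN2B fell in TD5 and CDKN3 rose in WB1, which were the only 4 of 21 comparisons of a member in a clone with TPC1 that were called. A call needed a Benjamini-Hochberg adjusted p under 0.05 over all 16027 tested genes in limma and a change of at least 1.5-fold. In D11 1 of 7 members was called (4.84% of all tested genes), in WB1 1 of 7 (4.99%) and in TD5 2 of 7 (2.6%). By adjusted p alone 3 of 7 members passed in D11, beside 33.3% of tested genes. All 3 were lower, beside 13.4% of tested genes that were lower and 19.9% that were higher. In WB1 6 of 7 members passed (30.9% of tested genes), of which 3 were higher (18.6%) and 3 lower (12.3%). In TD5 4 of 7 passed (11.9%), of which 2 were higher (5.32%) and 2 lower (6.57%). The share of members in D11 was near its background, and with 7 genes each share rests on few. The median log2 differences of the members in D11, WB1 and TD5 were -0.09, 0.17 and 0.11, beside medians of 0.05, 0.06 and 0.00 over all tested genes. The 3 comparisons share the same TPC1 libraries, which makes them dependent on each other. Where the libraries of a clone are said to lie wholly above or below those of TPC1, this is a description only. The share of all tested genes with such a pattern in a given clone is not given here.

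**Figure D1:**
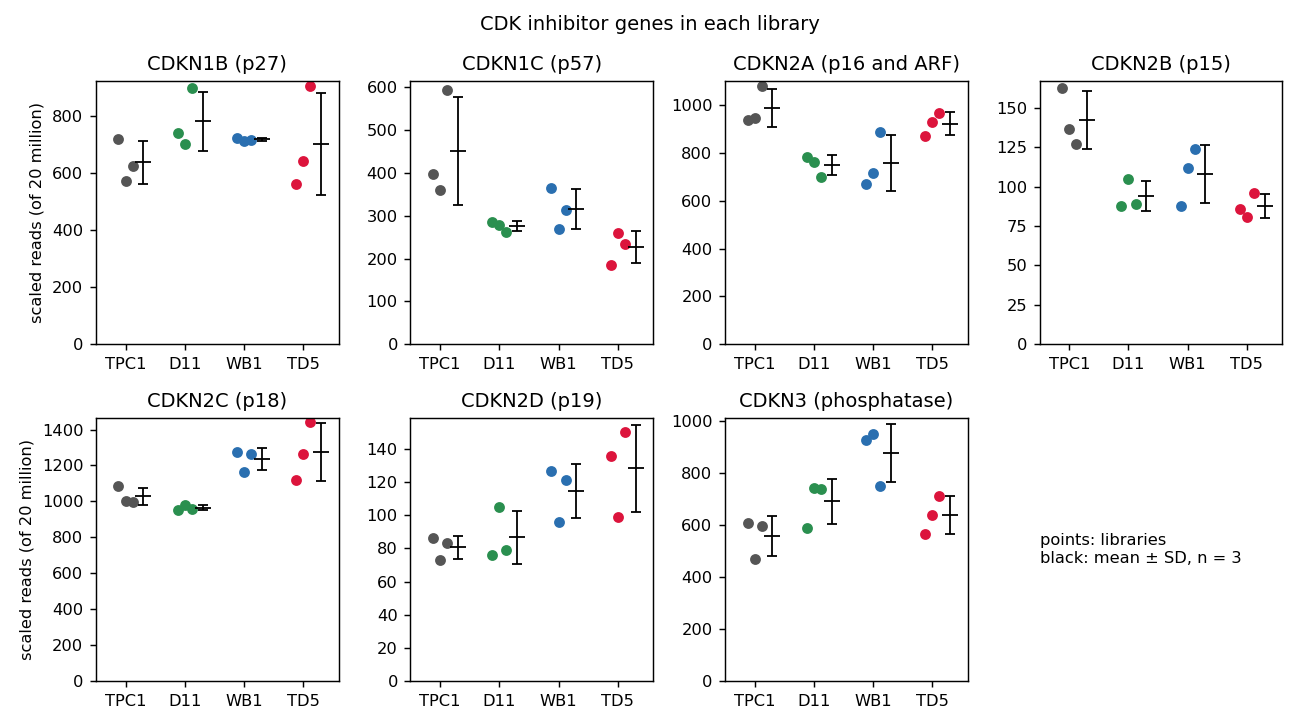
Each panel plots 1 member, with scaled reads on a linear axis from 0, 3 libraries per line as points and the mean ± SD (n = 3) in black. The 9 clone libraries of CDKN2B, at 81 to 124, all sit below the 3 TPC1 libraries, at 127 to 163, whereas the lines interleave for CDKN1B.

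CDKN1B, which encodes p27, lies on chr12:12685498-12722369 (+). It was at 720, 571 and 625 scaled reads in TPC1, at 741, 703 and 900 in D11, at 724, 714 and 718 in WB1 and at 561, 641 and 904 in TD5. The lowest and the highest of these 12 values both came from TD5, and every clone overlapped with TPC1. Line means ran from 639 ± 75.4 (SD, n = 3) in TPC1 through 702 ± 179 in TD5 and 719 ± 5.03 in WB1 to 781 ± 105 in D11, and no neighbours in this order differed beyond their spread. D11 was 0.28 above TPC1 on the log2 scale (95% interval -0.00 to 0.56, adjusted p = 0.113), WB1 0.17 (-0.11 to 0.45, adjusted p = 0.340) and TD5 0.11 (-0.17 to 0.39, adjusted p = 0.651). These intervals reach up to but not past a 1.5-fold change, and with the GC correction the difference of WB1 was -0.01.

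CDKN1C, which encodes p57 from an imprinted region of chromosome 11 (chr11:2883213-2885775, -), showed the largest differences among the members. It was at 397, 361 and 594 scaled reads in TPC1, at 286, 279 and 262 in D11, at 364, 270 and 313 in WB1 and at 186, 260 and 234 in TD5. Of 9 clone libraries 8 lay below all TPC1 libraries, the exception being WB1 replicate 1, and TPC1 replicate 3 stood well above the other two TPC1 libraries. TPC1 averaged 451 ± 125 scaled reads, D11 276 ± 12.3, WB1 316 ± 47.1 and TD5 227 ± 37.5 (SD, n = 3), so that the clones had 61.2%, 70.0% and 50.3% of the TPC1 mean. Ordered by mean, neither WB1 and D11 nor D11 and TD5 differed past the p threshold, but with the GC correction TD5 lay below D11 by -0.43 against -0.27 without it (adjusted p = 0.0204 against 0.210). CDKN1C fell in TD5 (log2 difference -0.91 ± 0.15 SE, adjusted p = 0.00102) and in D11 (-0.64 ± 0.15 SE, adjusted p = 0.00563). In WB1 the difference of -0.47 ± 0.15 SE passed on p (adjusted p = 0.0303) but not on fold. The call in D11 was lost without TPC1 replicate 3 (-0.43, adjusted p = 0.0363) and with a correction for GC content (-0.53, adjusted p = 0.00468), while the call in TD5 was kept under every alternative. In WB1 the adjusted p was 0.0570 with the GC correction, and it was also over 0.05 with no filter on low values and without TPC1 replicate 3, WB1 replicate 2 or WB1 replicate 3, whereas the difference was called without TPC1 replicate 2 (-0.60).

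The 2 CIP/KIP members were also set against each other within each library. The ratio of CDKN1B to CDKN1C scaled reads, not corrected for length, was 1.81, 1.58 and 1.05 for the TPC1 libraries, 2.59, 2.52 and 3.44 for D11, 1.99, 2.64 and 2.29 for WB1 and 3.02, 2.47 and 3.86 for TD5. Every clone library lay above every TPC1 library. This ratio was computed after the values of both genes were known and was not tested. The sum of the 2 genes averaged 1089 ± 145 scaled reads across TPC1, 1057 ± 93.7 across D11, 1034 ± 52.1 across WB1 and 929 ± 197 across TD5 (SD, n = 3), and the libraries of each clone overlapped with those of TPC1.

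**Figure D2:**
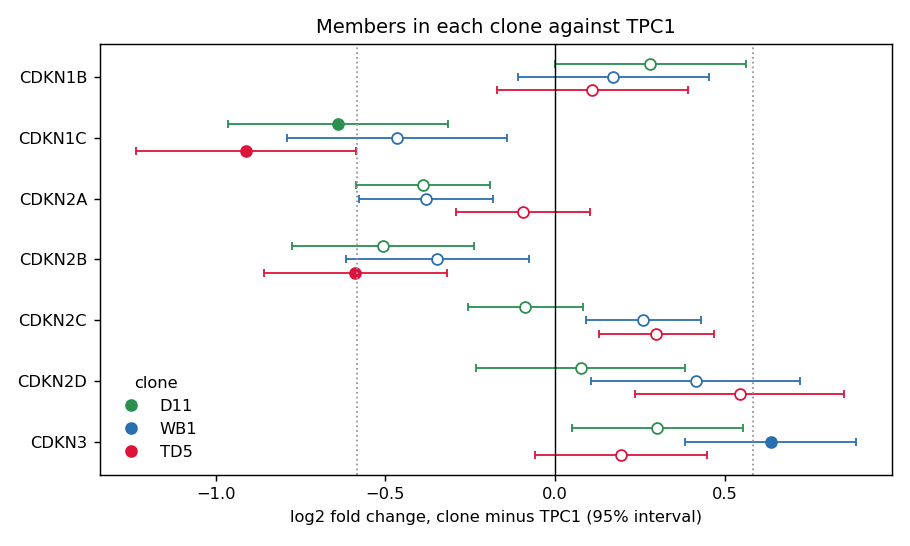
Points give the log2 difference of each member between a clone and TPC1 with its 95% interval, filled where the gene was called, and dotted lines mark a 1.5-fold change. CDKN1C (-0.64 in D11, -0.91 in TD5), CDKN2B (-0.59 in TD5) and CDKN3 (0.64 in WB1) carry the 4 filled points.

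CDKN2A encodes p16 and, from another first exon and reading frame, the p53 pathway protein ARF (chr9:21967752-21995301, -), and values per gene do not separate these products. It was at 939, 947 and 1080 scaled reads in TPC1, at 784, 761 and 702 in D11, at 671, 716 and 890 in WB1 and at 873, 929 and 968 in TD5. All D11 and WB1 libraries lay below all TPC1 libraries, and TD5 overlapped with TPC1. The means were 989 ± 79.2 in TPC1, 923 ± 47.8 in TD5, 759 ± 116 in WB1 and 749 ± 42.3 in D11 (SD, n = 3), and no neighbours in this order differed past the p threshold. The differences of -0.39 ± 0.09 SE in D11 (adjusted p = 0.00555) and -0.38 ± 0.09 SE in WB1 (adjusted p = 0.00643) passed on p under every alternative and stayed below 1.5-fold, and that of -0.10 in TD5 did not pass (95% interval -0.29 to 0.10, adjusted p = 0.562). CDKN2B-AS1, transcribed from the opposite strand, shares 593 exon bases with CDKN2A, and the strand setting of the counting is not given in the sources used here. Its own level was 17 to 43 scaled reads.

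CDKN2B, the neighbour of CDKN2A that encodes p15 (chr9:22002903-22009305, -), was at 163, 137 and 127 scaled reads in TPC1, at 88, 105 and 89 in D11, at 88, 112 and 124 in WB1 and at 86, 81 and 96 in TD5. It was the only member whose 9 clone libraries all lay below all 3 TPC1 libraries, a pattern found in 6.51% of tested genes. TPC1 averaged 142 ± 18.6 scaled reads, followed by WB1 with 108 ± 18.3, D11 with 94.0 ± 9.54 and TD5 with 87.7 ± 7.64 (SD, n = 3), which for the clones is 75.9%, 66.0% and 61.6% of the TPC1 mean. The clones did not differ from one another past the p threshold. CDKN2B fell in TD5 (-0.59 ± 0.13 SE, adjusted p = 0.00621), just past 1.5-fold, and this call was lost with a pseudocount of 4 (-0.40) and without TPC1 replicate 1 (-0.50), TD5 replicate 1 (-0.58) or TD5 replicate 2 (-0.54). In D11 the difference of -0.51 ± 0.13 SE (adjusted p = 0.00724) passed on p under every alternative and also on fold in voom on estimated reads (-0.61), with the GC correction (-0.61) and with a pseudocount of 0.1. In WB1 the difference of -0.35 (adjusted p = 0.0480) lost its p under 13 of 22 alternatives, among them the replicate block (adjusted p = 0.0688), and without any 1 of the TPC1 or D11 libraries, WB1 replicate 1 or 2 or TD5 replicate 1. CDKN1C and CDKN2B were the members with a lower level past the p threshold in all 3 clones, as were 2.88% of tested genes.

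CDKN2C, which encodes p18 (chr1:50960745-50974634, +), was at 1084, 1000 and 997 scaled reads in TPC1, at 954, 982 and 958 in D11, at 1275, 1165 and 1263 in WB1 and at 1117, 1262 and 1441 in TD5. WB1 and TD5 lay wholly above TPC1, and D11 lay wholly below it by a small margin. The means ran from 965 ± 15.1 in D11 through 1027 ± 49.4 in TPC1 and 1234 ± 60.3 in WB1 to 1273 ± 162 in TD5 (SD, n = 3), and of the neighbours in this order TPC1 and WB1 differed past the p threshold. The differences of 0.26 ± 0.08 SE for WB1 (adjusted p = 0.0216) and 0.30 ± 0.08 SE for TD5 (adjusted p = 0.0222) passed on p and not on fold, and that of -0.09 in D11 did not pass (95% interval -0.26 to 0.08, adjusted p = 0.410). With median-of-ratios scaling the difference in WB1 was 0.20 (adjusted p = 0.0573), and leaving out TPC1 replicate 2 or 3 took the adjusted p of both clones over 0.05. The same held for WB1 without WB1 replicate 1 or 3, and for TD5 without TD5 replicate 3 or in a fit of TD5 and TPC1 alone. An antisense gene of the reference annotation that was not analysed here shares 617 exon bases with CDKN2C.

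CDKN2D, which encodes p19 (chr19:10566460-10569059, -), was at 86, 73 and 83 scaled reads in TPC1, at 76, 105 and 79 in D11, at 127, 96 and 121 in WB1 and at 136, 99 and 150 in TD5. All WB1 and TD5 libraries lay above all TPC1 libraries, and replicate 2 was the highest in D11 but the lowest in WB1 and TD5. TPC1 averaged 80.7 ± 6.81 scaled reads, D11 86.7 ± 15.9, WB1 115 ± 16.4 and TD5 128 ± 26.4 (SD, n = 3), so that the clones had 107%, 142% and 159% of the TPC1 mean, and no neighbours in this order differed past the p threshold. The differences of 0.41 ± 0.15 SE for WB1 (adjusted p = 0.0403) and 0.55 ± 0.15 SE for TD5 (adjusted p = 0.0218) passed on p and not on fold, and that of 0.08 for D11 did not pass (95% interval -0.23 to 0.38, adjusted p = 0.715). That scale adds 1 per 1000000 before the logarithm, which understates changes of genes as low as CDKN2D and CDKN2B, and in voom on estimated reads the TD5 difference was 0.65 and was called, as it was with a pseudocount of 0.1 (0.64) and without TD5 replicate 2 (0.70). In WB1 the adjusted p was 0.0511 with the replicate block and, under median-of-ratios scaling, 0.0627. Over 0.05 it also was with no filter on low values and without any 1 of the TPC1 libraries, WB1 replicate 1 or WB1 replicate 3, as was that of TD5 with no filter and without TPC1 replicate 2 or 3 or TD5 replicate 1 or 3.

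In WB1 and TD5 the INK4 members differed from TPC1 in both directions past the p threshold, while in D11 only lower differences passed. In WB1 CDKN2A and CDKN2B were lower and CDKN2C and CDKN2D higher, all past the p threshold. Of these, CDKN2B, CDKN2C and CDKN2D lost their p under 13, 5 and 8 of 22 alternatives. The ratio of CDKN2A to CDKN2C scaled reads in WB1 was 0.615 ± 0.0892 against 0.965 ± 0.110 in TPC1 (SD, n = 3). For D11 this ratio was 0.777 ± 0.0445 and for TD5 0.730 ± 0.0552. CDKN2D over CDKN2B averaged 0.571 ± 0.0712 across TPC1, 0.917 ± 0.0728 across D11, 1.09 ± 0.310 across WB1 and 1.46 ± 0.202 across TD5, with every clone library above every TPC1 library. These ratios, chosen after the values were seen, were not tested. The summed INK4 reads averaged 2239 ± 71.1 across TPC1, 1894 ± 62.9 across D11, 2216 ± 162 across WB1 and 2413 ± 224 across TD5 (SD, n = 3). The 3 D11 sums, 1828 to 1953, lay below the TPC1 sums, 2157 to 2287, and the sums of WB1 and TD5 overlapped with them.

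CDKN3, the CDK phosphatase (chr14:54396849-54420218, +), was at 609, 469 and 596 scaled reads in TPC1, at 590, 744 and 741 in D11, at 929, 953 and 750 in WB1 and at 567, 641 and 711 in TD5. All WB1 libraries were above all libraries of TPC1, D11 and TD5, and D11 and TD5 each overlapped with TPC1 by 1 library. The means were 558 ± 77.3 in TPC1, 640 ± 72.0 in TD5, 692 ± 88.1 in D11 and 877 ± 111 in WB1 (SD, n = 3), again with no neighbours that differed past the p threshold. CDKN3 rose in WB1 (0.64 ± 0.12 SE, adjusted p = 0.00116), and its differences of 0.30 for D11 (95% interval 0.05 to 0.55, adjusted p = 0.0616) and 0.19 for TD5 (-0.06 to 0.45, adjusted p = 0.321) did not pass, although the adjusted p of D11 was under 0.05 in 5 of 22 alternatives. The p in WB1 stayed under 0.05 in every alternative, but the fold dropped below 1.5 with median-of-ratios scaling (0.57), with the GC correction (0.51) and without TPC1 replicate 2 (0.52) or WB1 replicate 2 (0.57).

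Between the clones no member was called, beside 2.85% of tested genes in WB1 against D11, 3.99% in TD5 against D11 and 2.33% in TD5 against WB1. On adjusted p alone 1, 3 and 1 members passed, beside 8.07%, 23.2% and 13.6% of tested genes. CDKN2C was higher in WB1 than in D11 (0.35 ± 0.08 SE, adjusted p = 0.0104) and higher in TD5 than in D11 (0.39 ± 0.08 SE, adjusted p = 0.00294), and both held their p under every alternative. CDKN2A (0.30 ± 0.09 SE, adjusted p = 0.0307) and CDKN2D (0.47 ± 0.15 SE, adjusted p = 0.0282) were higher in TD5 than in D11, and CDKN3 was lower in TD5 than in WB1 (-0.44 ± 0.12 SE, adjusted p = 0.0228). These 3 lost their p under 5, 8 and 7 of 22 alternatives, among them leaving out D11 replicate 2 or 3 or TD5 replicate 2 or 3 for CDKN2A, D11 replicate 1 or 3 or TD5 replicate 1 or 3 for CDKN2D, and WB1 replicate 1 or 2 or TD5 replicate 1 or 2 for CDKN3. Without D11 replicate 2 (0.59) or TD5 replicate 2 (0.62) the difference of CDKN2D was called. For CDKN1C the difference of -0.45 between TD5 and WB1 did not pass (95% interval -0.77 to -0.12, adjusted p = 0.0619), but with the GC correction it was -0.62 (adjusted p = 0.00291).

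Levels of different genes were compared per kilobase of the reference transcript, as scaled reads per 1000000 per kilobase. In TPC1 CDKN2C (51.6 ± 2.48) and CDKN2A (50.5 ± 4.05) were highest and did not differ beyond their spread, followed by CDKN3 (33.2 ± 4.60), CDKN1B (13.2 ± 1.56), CDKN1C (12.7 ± 3.54), CDKN2D (2.83 ± 0.239) and CDKN2B (1.85 ± 0.241) (SD, n = 3). In WB1 CDKN3 reached 52.1 ± 6.59 and stood above CDKN2A at 38.8 ± 5.91. CDKN2B was lowest of the members in every line, also when the length of all annotated exons was used, under which CDKN3 rather than CDKN2C was highest in D11 and WB1. CDKN1A (p21) had a level per kilobase of 63.7 ± 7.22 in TPC1 and 80.9 ± 5.06 in D11, above all 7 members in both lines. In WB1 (46.0 ± 8.22) and TD5 (38.8 ± 2.97) CDKN1A was instead below CDKN2C (62.0 ± 3.03 and 63.9 ± 8.15). CDK4, the kinase that the INK4 proteins bind, had 164 ± 7.62 in TPC1 and CDK6 7.31 ± 0.756.

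MIR222HG, the host transcript of miR-221 and miR-222, was higher in every clone library than in any TPC1 library. It was at 38, 42 and 50 scaled reads in TPC1, at 160, 184 and 202 in D11, at 162, 236 and 126 in WB1 and at 78, 65 and 82 in TD5. It rose in D11 (1.67 ± 0.16 SE, adjusted p = 2.41e-06) and in WB1 (1.59 ± 0.16 SE, adjusted p = 6.39e-06), and in TD5 the difference of 0.58 ± 0.16 SE (adjusted p = 0.0270) fell just short of 1.5-fold on the scale with 1 per 1000000 added, although the TD5 mean was 173% of the TPC1 mean. TD5 lay below D11 (-1.09, adjusted p = 0.000224) and WB1 (adjusted p = 0.000912), both called. Set beside the members that hold a seed match, CDKN1C and CDKN2B were lower past the p threshold in all 3 clones, and CDKN1B, with 2 matches, did not pass in any. Among the members without a match, CDKN2A was lower in D11 and WB1 as well. The clone with the least MIR222HG, TD5, had the lowest mean of CDKN1C and of CDKN2B. Mature miRNAs are not measured by mRNA libraries, and any part of miR-221 or miR-222 in these levels was not tested. Of the other hosts listed, MCM7, which carries miRNAs known to target p57 and p21, had differences of -0.03, -0.40 (adjusted p = 0.00114) and -0.05 in D11, WB1 and TD5.

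**Figure D3:**
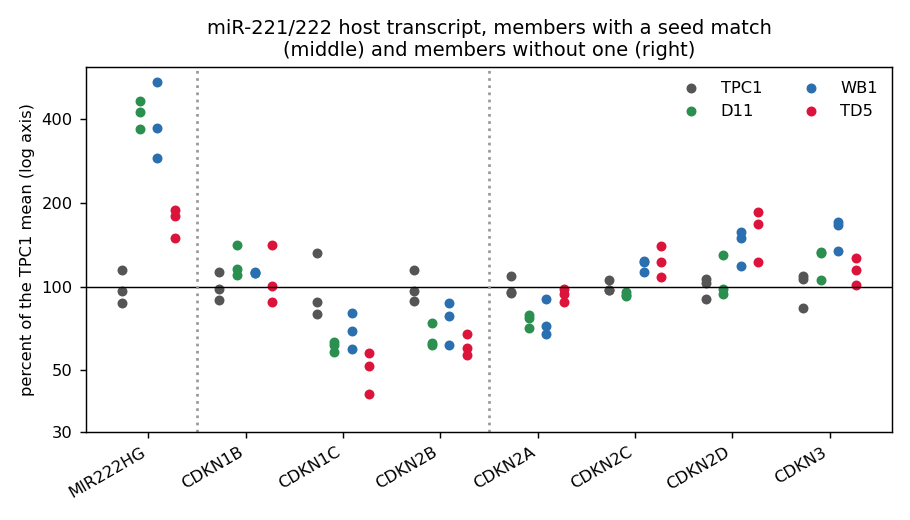
Points give each library as percent of the TPC1 mean on a log axis for MIR222HG (left), the 3 members whose 3′ UTR holds a seed match (middle) and the 4 without one (right). MIR222HG is above TPC1 in all 9 clone libraries and CDKN2B below it in all 9. CDKN1B is above the TPC1 mean in every clone library except TD5 replicate 1, and each clone overlaps with the TPC1 libraries.

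The lists of other genes are to be read against the shares of all tested genes that passed on adjusted p in D11, WB1 and TD5, which were 33.3%, 30.9% and 11.9%. Of the kinases and cyclins that the inhibitors bind, the cyclins CCND3 and CCNE1 fell in WB1 and CCNE2 rose in D11. Of 13 listed genes 12 were tested, and 1 rose in D11, 2 fell in WB1 and 0 were called in TD5, where 2 higher and 3 lower differences passed on p. CCND3 (cyclin D3) fell in WB1 from 1879, 1764 and 1888 scaled reads in TPC1 to 1144, 1235 and 1154 (-0.64 ± 0.08 SE, adjusted p = 2.65e-05), and in D11 (-0.45) and TD5 (-0.52) its lower level passed on p. CCNE1 (cyclin E1) fell in WB1 from 308, 264 and 249 to 147, 145 and 146 scaled reads (-0.82 ± 0.10 SE, adjusted p = 2.05e-05). Its libraries of D11 (214, 210 and 194) and TD5 (207, 203 and 195) also lay below all TPC1 libraries, without a call. CCNE2 (cyclin E2) rose only in D11 among the comparisons with TPC1 (0.60, adjusted p = 0.00129), and it was also lower in WB1 (-0.81) and in TD5 (-0.69) than in D11. CDK4 was 6135 ± 285 scaled reads in TPC1 (SD, n = 3) and differed by -0.19 for D11 (adjusted p = 0.0171), -0.19 for WB1 (adjusted p = 0.0156) and -0.12 for TD5 (adjusted p = 0.181). The differences of CDK6 were 0.12, -0.14 and -0.30 and those of CCND1 0.01, -0.12 and -0.27, of which only CCND1 in TD5 passed on p (adjusted p = 0.0257).

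RB and the E2F factors act downstream of the inhibited kinases. In D11 12 of 13 genes had a positive difference from TPC1, 8 of them past the p threshold, with a median of 0.23, beside 19.9% of tested genes higher past p and a median of 0.05 over all tested genes. For WB1 the list held 4 higher and 3 lower genes past p (median 0.09), and in TD5 1 was higher and 1 lower (median 0.00). E2F7, a repressor among the E2F factors, rose in D11 (0.91 ± 0.09 SE, adjusted p = 1.73e-06) and was 0.57 and 0.39 above TPC1 in WB1 and TD5, past p but not 1.5-fold. E2F1, an activator, was at 692, 572 and 647 scaled reads in TPC1 and fell in WB1 to 409, 392 and 385 (-0.66 ± 0.09 SE, adjusted p = 0.000109). RB1 was higher past p in D11 (0.43, adjusted p = 0.0110), with 0.23 in WB1 and 0.13 in TD5. Among 8 genes of the CDK-activating kinase, the CDC25 phosphatases and the kinases that oppose them, CDC25A was the 1 gene called, falling in WB1 (-0.65, adjusted p = 0.000367).

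CDKN1A, the CIP/KIP gene outside this group, was at 2936, 2354 and 2806 scaled reads in TPC1, at 3622, 3458 and 3197 in D11, at 2351, 1736 and 1760 in WB1 and at 1503, 1748 and 1676 in TD5. It fell in TD5 (-0.71, adjusted p = 0.000319), was lower past p in WB1 (-0.47, adjusted p = 0.00327) and higher past p in D11 (0.35, adjusted p = 0.0185). In D11 CDKN1A was thus higher and CDKN1C and CDKN2A lower past the p threshold. Among 7 genes of p53 and its regulators, MDM2 (0.71) and MDM4 (0.65), which restrain p53, rose in D11, and CDKN1A was the 1 gene called in TD5.

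Among regulators of the members, FOXO4, CBX2 and E2F1 were called. Of 10 genes of p27 turnover and export 0 were called in any clone by limma, while 4, 5 and 1 passed on p in D11, WB1 and TD5. SKP2, which marks p27 for degradation, differed by 0.12 for D11, -0.33 for WB1 (adjusted p = 0.0107) and -0.24 for TD5. Of 15 transcription factors known to act on CDK inhibitor genes, FOXO4, an activator of the p27 gene, rose in WB1 (0.59, adjusted p = 0.0133) and TD5 (0.61, adjusted p = 0.0227), at 40 to 119 scaled reads in those lines and TPC1, and E2F1 fell in WB1. Of 13 Polycomb genes, which silence the CDKN2A locus, CBX2 fell in WB1 (-0.71, adjusted p = 5.16e-05), and 6 higher genes passed on p in D11, 4 higher and 2 lower in WB1 and 1 higher in TD5, beside 19.9%, 18.6% and 5.32% of tested genes that were higher past p.

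Among the chromosomal neighbours, KCNQ1OT1 beside CDKN1C was called. At 9p21, where CDKN2A and CDKN2B lie, 8 of 12 listed genes were tested and 0 were called in any clone by limma, with 3, 1 and 0 passing on p, all higher. MTAP, next to CDKN2A, had differences of 0.13, -0.01 and -0.12. CDKN2B-AS1 was at 28, 20 and 17 scaled reads over the TPC1 libraries, 42, 37 and 35 over D11, 43, 38 and 43 over WB1 and 35, 29 and 29 over TD5, higher past p in D11 (0.48, adjusted p = 0.00925) and WB1 (0.57, adjusted p = 0.00380) and with 0.30 in TD5 (adjusted p = 0.141). Its means in D11 and WB1 were 175% and 191% of TPC1, and the 1 per 1000000 added before the logarithm brings so low a gene under 1.5-fold. At 11p15, 6 of 9 listed neighbours of CDKN1C were tested. KCNQ1OT1, the long non-coding RNA that silences the imprinted domain in cis, rose in D11 (0.60, adjusted p = 0.00318), was higher past p in WB1 (0.41, adjusted p = 0.0267) and was -0.41 from TPC1 in TD5 (adjusted p = 0.0520). KCNQ1OT1 was at 265 to 350 scaled reads in TPC1 and at 204 to 228 in TD5, and its part in the levels of CDKN1C was not tested.

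CDKN3, CDKN2C and CDKN2D were set beside 15 mitotic genes because CDKN3 is expressed by dividing cells. None of the 15 was called by limma in any clone. On adjusted p, 2 were higher and 2 lower in D11, 9 higher and 0 lower in WB1 and 8 higher and 0 lower in TD5, with medians of 0.08, 0.31 and 0.29. In WB1 the difference of CDKN3, 0.64, lay above all 15, whose highest was 0.53. In TD5 CDKN2C (0.30) lay near their median, CDKN2D (0.55) above their highest value of 0.38 and CDKN3 (0.19) below their median.

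**Figure D4:**
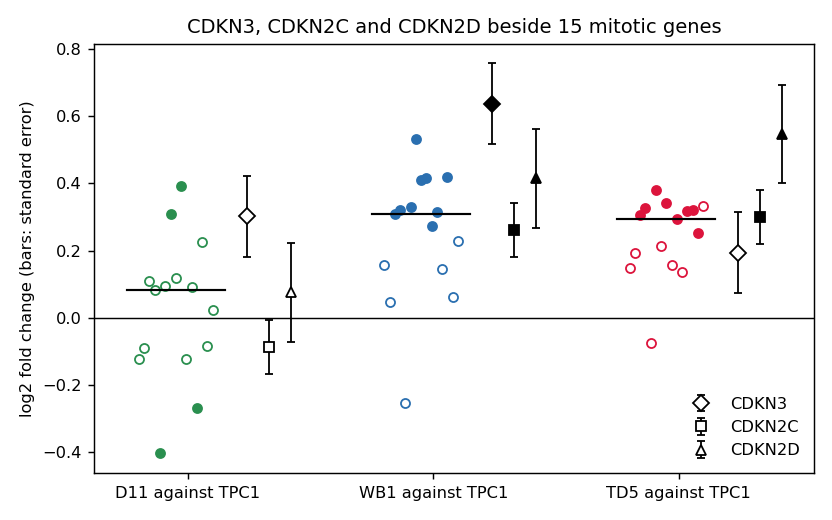
Circles give the log2 differences of 15 mitotic genes in each clone against TPC1, filled where the adjusted p was under 0.05, with their median as a bar, and black symbols give 3 members with SE. The medians from left to right are 0.08, 0.31 and 0.29, and CDKN3 in WB1 (0.64) stands above all 15.

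The genes whose levels followed each member most closely over the 12 libraries were ranked by Pearson correlation among 12242 genes. These correlations are descriptions, since the libraries of a line share its features. CDKN1C was closest to the keratin gene KRT8 (r = 0.945), ID3 (0.918) and COLGALT1 (0.910), and CDKN2B to BTRC (0.904), TLE4 (0.880) and ZNF385A (0.876). CDKN1B was closest to ACBD3 (0.938), TMEM64 (0.929) and MTHFD2L (0.926), and CDKN2A to SCAF1 (0.961), SHKBP1 (0.955) and OBSL1 (0.953). CDKN2C followed PARP9 (0.961), DLAT (0.940) and PLEKHG3 (0.919), and CDKN2D followed TNPO3 (0.901), RNF24 (0.870) and NSMCE2 (0.861). The list for CDKN3 held AC011604.2 (0.958), IGFN1 (0.938) and KNL1 (0.934), a kinetochore gene. No member appeared among the 3 closest genes of another. Among pairs of members the highest correlations were 0.79 between CDKN2C and CDKN2D and 0.63 between CDKN1C and CDKN2B, and the lowest was -0.68 between CDKN2A and CDKN3.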

How the data were processed

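Total RNA of 12 libraries was sequenced after a stranded mRNA preparation. The submitters' processing notes name STAR 2.5.3a, HTSeq 0.9.1 and GRCh38. The authors scaled read numbers per gene to 20000000 aligned reads and deposited whole numbers, treated here as a score and not as counts. Column sums were 20009833 to 20014191. The study's own test needs unscaled counts, so the test planned for scaled values was used. Groups came from sample titles. Values were turned into values per 1000000 of the column sum. limma 3.58.1 (R 4.3.3), with a variance trend and 1 mean per line, was run on their log2 after adding 1, for the 16027 genes that reached 1 per 1000000 in 3 or more libraries. The code was tested on simulated data.

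Depth was estimated from gaps between whole numbers; in TPC1 replicate 1, which has none, the estimate rests on the likelihood of the values alone. Floors cover counting error only, and 95% intervals come from the spread between libraries in the fit. Annotation was GENCODE 44. No 2 libraries of the same line agreed within sampling noise. Same-numbered libraries of D11 and TD5 deviated together (correlations of 0.107, 0.172 and 0.348 over genes), a pairing by number seen in the data and not stated in the labels. The values given are from the fit without a block, and the fit with the replicate number as a block is an alternative. No other pair of lines met this.

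The members and gene lists were chosen with earlier results of these data known. Named genes were all members, listed genes called against TPC1 (at most 4 per list), 10 preset genes and, for each member, the 3 most alike. Other genes (PAX8, LUM, COL1A1, KRT18, KRT19, EPCAM, the markers at the floor, MCM7 and MIR17HG) were named after their values were seen. Alternatives covered the pseudocount, filter, fold minimum, libraries in the fit, replicate block, scaling, GC content, voom and each library left out.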

Additional observations from a re-analysis of the deposited data

Results flagged for a closer look

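Members whose difference from TPC1 was not the same in 2 clones, by the test of one clone against the other in limma, are given here. CDKN2C differed by 0.35 (log2) in WB1 against D11 (adjusted p = 0.0104) and by 0.39 in TD5 against D11 (adjusted p = 0.00294), since its 3 D11 libraries lay below TPC1 and those of WB1 and TD5 above. CDKN2A differed by 0.30 in TD5 against D11 (adjusted p = 0.0307) and CDKN2D by 0.47 (adjusted p = 0.0282). CDKN3 differed by -0.44 in TD5 against WB1 (adjusted p = 0.0228). None of the 5 reached 1.5-fold. Groups of 3 libraries were not examined for outlying libraries.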

How the results depend on the processing

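Of 966 alternative values of the members' log2 differences 906 kept their direction and side of the call, 26 became called, 13 lost their call and 21 changed sign, none of the last a called value. This tally overstates stability, because many of the alternatives cannot change a log2 difference. These are the filter, the fold minimum, the fit of only 2 lines, the replicate block alone and leaving out a library of a line not compared. There only the p-value or the call could move. The counts of called members depended most on the 1.5-fold minimum. Without it they were 3 in D11, 6 in WB1, 4 in TD5, 1 in WB1 against D11, 3 in TD5 against D11 and 1 in TD5 against WB1. In D11 the count was 2 with a pseudocount of 0.1 and with voom on estimated reads, and 0 with a pseudocount of 4. In WB1 it was 0 with median-of-ratios scaling, with the GC correction and with the GC correction and replicate block together (an alternative chosen after seeing the data), and in TD5 1 with a pseudocount of 4 but 3 with a pseudocount of 0.1 and with voom, where CDKN2D was added. In TD5 against WB1 the GC correction gave 1, with or without the block. Leaving out 1 library gave 0 to 1 in D11, 0 to 1 in WB1, 1 to 2 in TD5 and 0 to 1 in TD5 against D11. The replicate block alone left the counts at 1, 1, 2, 0, 0 and 0, and beside the 2 adjusted p-values given for WB1 it moved no member past 0.05.

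Sign changes concerned differences of at most 0.17 in size that did not pass the p threshold. With the GC correction, and alike with the block added, CDKN2C in D11 became 0.0154, CDKN1B in WB1 -0.00583, CDKN2A in WB1 against D11 -0.0120, CDKN2B and CDKN3 in TD5 against D11 0.00941 and 0.00794, and CDKN1B and CDKN2C in TD5 against WB1 0.0867 and -0.00576. Leaving out 1 library gave -0.0441 to 0.146 for CDKN2D in D11 (lowest without D11 replicate 2), -0.0818 to 0.253 for CDKN1B in TD5 (lowest without TD5 replicate 3) and -0.107 to 0.0912 for CDKN2A in WB1 against D11 (lowest without WB1 replicate 3, and -0.0349 without D11 replicate 3). In TD5 against WB1 it gave -0.253 to 0.0815 for CDKN1B (highest without TD5 replicate 1) and -0.0538 to 0.127 for CDKN2C (lowest without TD5 replicate 3, and -0.00259 without WB1 replicate 2). The cause was not tested. Some differences that missed the p threshold passed it without 1 library, namely CDKN1B in D11 and in TD5 against D11 (TD5 replicate 3), CDKN3 in D11 (TPC1 replicate 1, D11 replicate 1, WB1 replicate 3 or TD5 replicate 3), CDKN1C in TD5 against WB1 (TPC1 replicate 2 or 3) and CDKN2A in TD5 against WB1 (TPC1 replicate 3 or WB1 replicate 3). Counting error bears most on CDKN2B and CDKN2D, the members with the fewest reads.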
